A study of Mus musculus with 36 samples.

Results

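The late adult step from 14 to 20 weeks of age was measured on 4 of the 36 microarrays of a time course in hindlimb muscle of *mdx* and control mice. These were the arrays whose labels pair the ages of 14 and 20 weeks, 2 for each strain. They held RNA of 8 mice, 1 animal of 14 weeks and 1 of 20 weeks of the same strain on each array, called animals A on the first array of a strain and animals B on the second. The *mdx* mice came from a cross of C57Bl/10ScSn mdx/J with C57Bl/6NCrl and CBA/JCrl, and carry a premature stop codon in exon 23 of *Dmd*, which removes dystrophin. The control mice were C57Bl/10ScSnOlaHsd, so the strains differ in genetic background as well as in *Dmd*. No treatment is named for either group, and the paper does not give the sex of the mice. Of the 36 arrays, 18 form a closed loop over 9 ages in each strain, with 2 animals per age and strain, and *mdx* and control samples were never put on the same array. The ratios hold the change from 14 to 20 weeks within a strain, and not the level of a gene in *mdx* against control mice, nor whether muscle genes stand above those of other cells.

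Dystrophin ties the actin cytoskeleton of the muscle fibre to the extracellular matrix, at sites called costameres. Fibres without it are damaged by contraction, die and are replaced from satellite cells, and in young *mdx* mice this runs through a phase of necrosis followed by a phase of regeneration. By the ages compared here that phase has passed its peak, and growth of the body has slowed in both strains. Adult hindlimb muscle is made mostly of fast fibres rich in creatine kinase and glycolytic enzymes, with capillary endothelium, fibroblasts, nerve and fat between the fibres. Since whole tissue was used, fewer cells of a type and less RNA per cell cannot be told apart.

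Each value below is the mean of the duplicate spots of a probe, with the mean of the strain's 18 arrays subtracted to remove the effect of the dye, turned to 20 minus 14 weeks. It is on the natural log (ln) scale, where a fold change is e raised to the value for bright spots, and the change of dim spots is understated. The 20-week sample was in channel 1 on the *mdx* arrays and in channel 2 on the control arrays. A dye effect that the subtraction leaves behind therefore has opposite signs in the strains, and in the difference between strains it cannot be told apart from genotype. A change was called when its p-value from limma was below 0.05 after Benjamini-Hochberg adjustment over 6754 probes.

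The arrays of this step differed in spread and did not repeat each other. The standard deviation over probes was 0.198 on the *mdx* array of animals A, the narrowest of the 36 arrays, and 0.348 on that of animals B. It was 0.558 on the control array of animals A, the widest of the 36, and 0.365 on that of animals B. Across the 6754 probes, which are not independent replicates, arrays A and B correlated with r = -0.411 in control and r = -0.174 in *mdx* mice. These were the lowest of the 18 pairs of replicate arrays in the loops, and the other 16 pairs lay between -0.141 and 0.567. At a limit of 0.3, 1361 probes lay on opposite sides of 0 on the control arrays and 304 on the same side. The direction was kept, as the labels give the ages of both channels and different animals may oppose each other. The halved difference between A and B correlated at r = -0.595 (control) and -0.383 (*mdx*) with that of the 20 to 1 week arrays, which share the 20-week animals. With the 12 to 14 week arrays, which share the 14-week animals, it was -0.383 and -0.276. For the 6 steps that share no animal with this one, r ran from -0.354 to 0.203 in control and from -0.255 to 0.187 in *mdx* mice. The 12 to 14 week values lay only just below those ranges. Among the probes furthest apart on the control arrays, picked after their values were seen, Ube2v2, a partner of ubiquitin-conjugating enzymes, measured -3.27 with animals A and 1.07 with animals B. Ncl, the nucleolar protein nucleolin, measured -2.55 and 0.70, and Cartpt, a neuropeptide precursor, 0.73 and -2.47. The values of single arrays are therefore given for most of the genes below.

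**Figure D1:**
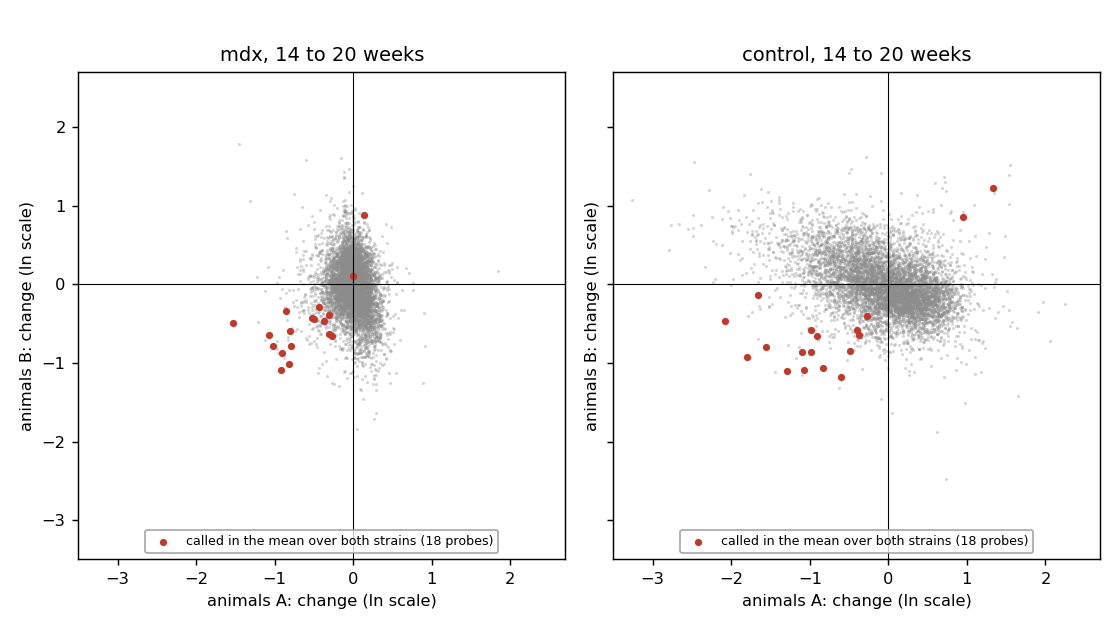
Change from 14 to 20 weeks (ln scale) of 6754 probes on the array of animals A (horizontal) against that of animals B (vertical), in *mdx* (left) and control mice (right), with the 18 probes called in the mean over both strains in red. The cloud of control probes runs from upper left to lower right (r = -0.411), and 16 of the red probes lie in the lower left of both panels.

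The change common to both strains was mostly downward. In the mean over the strains 16 probes fell (0.237% of those tested) and 2 rose (0.0296%), with 436 (6.46%) below and 236 (3.49%) above 0 at an unadjusted p under 0.05. All 16 were below 0 on each of the 4 arrays, with medians from -0.61 on the *mdx* array of animals B to -0.99 on the control array of animals A. The 16 fell into transcription and chromatin factors (Nfix, Klf9, Klf13, Chrac1), signalling enzymes (Pdpk1, Dusp8, Gnai2), surface and vessel proteins (Ptprb, Icam2, Cdh13, St6gal1), mitochondrial proteins (Sdhb, Timm10b, Fastk), a ubiquitin ligase (Marchf7) and a sarcomere protein (Tcap). This grouping was made after the names were seen. With array weights 0 of the 18 probes remained called, and from the 4 arrays alone 0 did. Nfix, which had the lowest adjusted p, then had adjusted p of 0.204 and 0.373. Of the 18 probes, 18 remained called without the control array of animals B, 11 without the *mdx* array of animals A, 4 without that of animals B and 3 without the wide control array, and Nfix, St6gal1 and Marchf7 passed each time (highest adjusted p 0.0288, 0.0328 and 0.0328). The number of probes called in the mean was 390 (112 up, 278 down), 66, 4 and 7 in the same order.

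**Figure D2:**
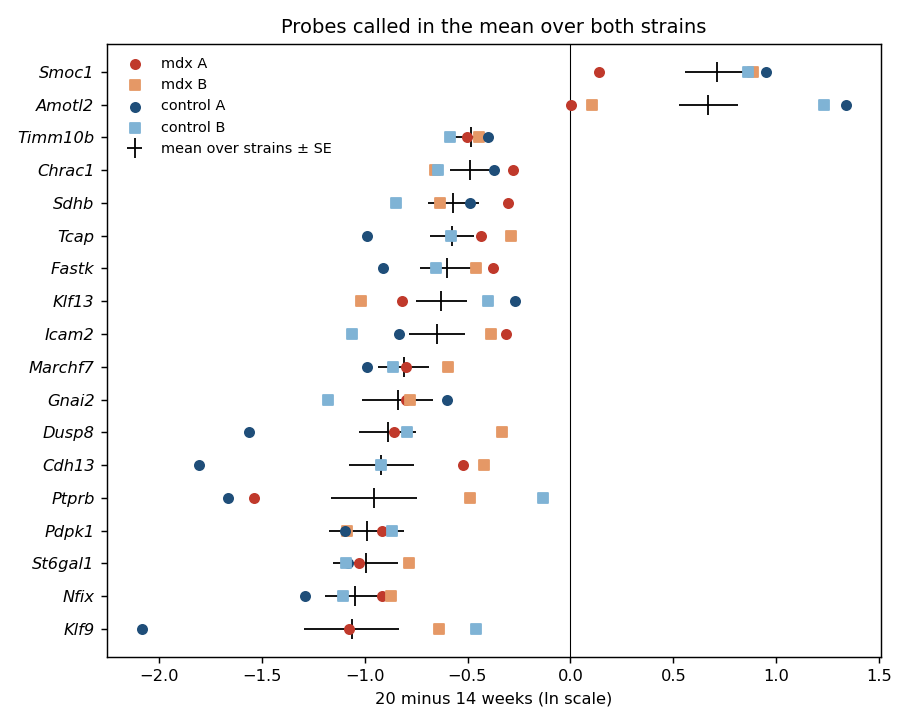
The 18 probes called in the mean over both strains, with the value of each array (20 minus 14 weeks, ln scale) as points (*mdx* A red, *mdx* B orange, control A dark blue, control B light blue) and the mean with its standard error as a black cross. The values of Pdpk1 and Timm10b lie close together, those of Klf9 spread from -0.46 to -2.08 and those of Ptprb from -0.13 to -1.66, and Amotl2 is near 0 on both *mdx* arrays.

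Nfix, a nuclear factor I protein that directs the switch from the embryonic to the fetal programme in myoblasts, measured -0.91 and -0.87 on the *mdx* arrays and -1.29 and -1.11 on the control arrays. All 4 values were close together, and the mean change was -1.04 (standard error 0.15, adjusted p = 0.00128), a 2.84-fold fall. Klf9, a Krüppel-like factor induced by glucocorticoids and thyroid hormone, measured -1.07 and -0.64 in *mdx* and -2.08 and -0.46 in control mice. Its mean was -1.06 (standard error 0.23, adjusted p = 0.0435), with the wide control array of animals A far below the other 3. Without that array the mean was -0.70 and the adjusted p 0.256. Klf13, of the same family, fell by 0.63 in the mean (standard error 0.12, adjusted p = 0.0263), from -0.82 and -1.02 in *mdx* and -0.27 and -0.40 in control mice. It was the only 1 of these 4 whose *mdx* values were both below its control values. Chrac1, a histone-fold protein of chromatin remodelling complexes, measured -0.28, -0.66, -0.37 and -0.64, with a mean of -0.49 (standard error 0.099, adjusted p = 0.0346).

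Of the signalling enzymes, Pdpk1, the kinase that activates Akt, measured -0.92 and -1.08 in *mdx* and -1.09 and -0.86 in control mice. The strains overlapped, and the mean was -0.99 (standard error 0.18, adjusted p = 0.0131). Dusp8, a phosphatase that inactivates mitogen-activated protein kinases, fell more in the array of animals A of each strain, with -0.86 and -0.33 in *mdx* and -1.56 and -0.79 in control mice. Its mean change was -0.89 (standard error 0.14, adjusted p = 0.00217). Gnai2, an inhibitory G protein subunit, was close in the strains, at -0.80 and -0.78 in *mdx* and -0.60 and -1.18 in control mice (mean -0.84, standard error 0.17, adjusted p = 0.0346). Marchf7, a RING-type ubiquitin ligase, measured -0.80 and -0.59 in *mdx* and -0.99 and -0.86 in control mice. Both control values were below both *mdx* values, and the mean was -0.81 (standard error 0.12, adjusted p = 0.00217). With arrays scaled to equal spread the order was not kept, as the control change was -0.59 and the mean -0.71.

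St6gal1, which adds sialic acid to the glycans of surface proteins, measured -1.03 and -0.78 in *mdx* and -1.08 and -1.09 in control mice, with a mean of -0.99 (standard error 0.16, adjusted p = 0.00217). The other two probes of this gene did not share the fall. One measured -0.11, 0.01, -0.05 and -0.32 and the other -0.23, -0.33, 0.64 and -0.20, in the same order of arrays. Cdh13, a cadherin held in the membrane by a lipid anchor that binds adiponectin, measured -0.52 and -0.42 in *mdx* and -1.80 and -0.92 in control mice (mean -0.92, standard error 0.16, adjusted p = 0.00587). Its control values were both below its *mdx* values. Ptprb, a receptor phosphatase of endothelium, measured -1.53 and -0.49 in *mdx* and -1.66 and -0.13 in control mice, so that the animals A were below the animals B in both strains (mean -0.95, standard error 0.21, adjusted p = 0.0435). Without the wide control array the mean was -0.61 and the adjusted p 0.271. Icam2, an adhesion molecule of endothelium and leukocytes, measured -0.31, -0.39, -0.83 and -1.06, with a mean of -0.65 (standard error 0.14, adjusted p = 0.0408). It was the only one of 17 probes of the endothelial list that was called. The list had medians of -0.09 and -0.02 on the *mdx* and -0.32 and -0.05 on the control arrays. Cdh5, which marks endothelium, measured 0.17, -0.17, -0.93 and -0.02.

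Among the mitochondrial proteins, Sdhb, the iron-sulphur subunit of succinate dehydrogenase, measured -0.30 and -0.63 in *mdx* and -0.49 and -0.85 in control mice. The strains overlapped and the mean was -0.57 (standard error 0.12, adjusted p = 0.0435). Timm10b, a chaperone of protein import into the inner membrane, lay between -0.40 and -0.59 on the 4 arrays (mean -0.48, standard error 0.10, adjusted p = 0.0361). Fastk, a kinase-like protein with a mitochondrial form that acts in RNA processing, measured -0.38, -0.46, -0.91 and -0.65, with a mean of -0.60 (standard error 0.13, adjusted p = 0.0435). Sdhb was the 1 member called of 29 measured probes for oxidative phosphorylation and the citric acid cycle. At an unadjusted p under 0.05, 11 of the 29 were below 0 and 0 above, against 6.46% and 3.49% of all probes. The list's medians were -0.07 and -0.14 on the *mdx* and -0.39 and -0.28 on the control arrays, beside -0.01, -0.01, 0.00 and -0.04 over all probes.

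Idh2, a mitochondrial isocitrate dehydrogenase, measured -0.16 and -0.49 in *mdx* and -0.64 and -0.59 in control mice (mean -0.47, adjusted p = 0.205). Cox7c, a subunit of cytochrome oxidase, measured -0.22, -0.20, -0.79 and -0.31 (mean -0.38, adjusted p = 0.238), and Cox4i1, another subunit, -0.31, -0.41, -0.08 and -0.53 (mean -0.33, adjusted p = 0.235). All 3 lay below 0 on the 4 arrays without passing the test. With Sdhb, 9 of the 29 probes were below 0 on all 4 arrays, against 446 of all 6754. Mdh2, malate dehydrogenase, went the other way between the replicates, with 0.22, -1.05, 1.63 and -0.55.

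Tcap, the titin cap of the Z-disc, measured -0.44 and -0.29 in *mdx* and -0.99 and -0.58 in control mice. Its control values were below its *mdx* values and it fell in the mean by 0.57 (standard error 0.11, adjusted p = 0.0131). Other muscle genes had values as low or lower, with larger standard errors, and did not pass. Ckm, the muscle creatine kinase, measured -0.96 and -0.87 in *mdx* and -1.44 and -1.12 in control mice (mean -1.10, standard error 0.27, adjusted p = 0.0967). Both strains were low, with the control values below the *mdx* values. Ankrd2, a stretch-responsive ankyrin repeat protein, measured -0.42, -0.63, -1.10 and -1.16 (mean -0.83, standard error 0.20, adjusted p = 0.0967). Casq1, the calcium-binding protein of the sarcoplasmic reticulum of fast fibres, measured -0.54, -0.74, -1.14 and -0.80 (mean -0.80, standard error 0.26, adjusted p = 0.25). Eno3, the muscle enolase, measured -0.89, -0.94, -1.78 and -0.40 with 1 probe (mean -1.0, standard error 0.30, adjusted p = 0.219), and 0.14, -0.01, -0.37 and -0.48 with a second, so the probes disagree in *mdx* mice.

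In the fast fibre and glycolysis list, 0 of 26 probes were called, 5 were below 0 at an unadjusted p under 0.05 and 0 above, against 6.46% and 3.49% of all probes. Aldoa, the muscle aldolase, and Pgam2, the muscle phosphoglycerate mutase, made up the 5 with Ckm, Casq1 and Eno3, with means of -0.35 and -0.44. The list medians were 0.08 and -0.21 on the *mdx* and -0.21 and -0.18 on the control arrays. In the slow fibre list 0 of 13 were called, and the medians were 0.03, -0.09, -0.66 and -0.04, so that the low value was that of the wide control array. For calcium handling and excitation 0 of 29 were called. Of all probes 0.237% were called down and 0.0296% up in the mean, so a count of 0 in such lists is near that share.

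Ckm, Eno3, Casq1 and Ankrd2 are the members of the muscle lists that lay at or below -0.30 on all 4 arrays, and their promoters are shown for that reason. Each is the 250 bases before the start of the gene in RefSeq (GRCm38.p6), written along the strand of the gene. Capitals mark the E-box CANNTG, the letters bound by MyoD and other basic helix-loop-helix factors, which read alike on both strands, and the TATA box TATAAA, searched on the gene's strand. The letters CTANNNNTAG, a form of the MEF2 site, were searched too and were not found in the 4 windows. Of 32851 promoters of this length, 66.2% hold CANNTG, 7.59% TATAAA and 3.2% CTANNNNTAG, and no match overlaps another in these windows.
Ckm, chr7:19410844-19411093, plus strand: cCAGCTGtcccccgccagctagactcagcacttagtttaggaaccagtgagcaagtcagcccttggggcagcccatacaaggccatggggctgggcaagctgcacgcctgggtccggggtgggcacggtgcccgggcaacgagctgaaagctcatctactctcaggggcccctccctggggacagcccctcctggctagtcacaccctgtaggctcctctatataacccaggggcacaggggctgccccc
Eno3, chr11:70656926-70657175, plus strand: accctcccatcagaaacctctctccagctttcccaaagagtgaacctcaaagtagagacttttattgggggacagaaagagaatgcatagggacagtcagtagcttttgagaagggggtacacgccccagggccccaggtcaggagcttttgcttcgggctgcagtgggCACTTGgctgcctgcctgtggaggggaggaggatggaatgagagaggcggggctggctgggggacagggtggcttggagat
Casq1, chr1:172219896-172220145, minus strand: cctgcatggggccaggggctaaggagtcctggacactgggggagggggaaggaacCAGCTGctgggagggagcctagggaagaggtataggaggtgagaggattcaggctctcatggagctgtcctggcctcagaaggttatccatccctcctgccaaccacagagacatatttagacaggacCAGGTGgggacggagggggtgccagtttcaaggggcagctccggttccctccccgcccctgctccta
Ankrd2, chr19:42035777-42036026, plus strand: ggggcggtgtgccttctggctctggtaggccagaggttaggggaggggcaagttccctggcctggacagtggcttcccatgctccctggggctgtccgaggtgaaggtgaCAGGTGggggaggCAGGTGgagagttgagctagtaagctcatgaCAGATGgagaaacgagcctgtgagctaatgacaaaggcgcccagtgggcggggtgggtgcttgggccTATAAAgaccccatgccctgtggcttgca

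The Ankrd2 promoter held 3 E-boxes and the TATA box, that of Casq1 2 E-boxes, and those of Ckm and Eno3 1 each. With E-boxes in most promoters, their presence does not set these genes apart.

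Only Smoc1 and Amotl2 rose in the mean over both strains. Smoc1, a secreted calcium-binding protein of basement membranes, measured 0.14 and 0.89 in *mdx* and 0.95 and 0.86 in control mice, all above 0 and lowest on the narrow *mdx* array (mean 0.71, standard error 0.15, adjusted p = 0.0435). Amotl2, an angiomotin-like protein of cell junctions that binds YAP, measured 0.00 and 0.11 in *mdx* and 1.34 and 1.23 in control mice. Its mean of 0.67 (standard error 0.14, adjusted p = 0.0435) is thus the change of the control mice, which was 1.28 (standard error 0.20, adjusted p = 0.00668). Trim21, an antibody-binding ubiquitin ligase, had 0.27, 0.51, 0.44 and 0.33, close together on the 4 arrays, and did not pass (mean 0.39, adjusted p = 0.135). Spata6 with 0.06, 0.61, 0.74 and 1.19 (mean 0.65, adjusted p = 0.0745) and the adaptor Grb7 with 0.15, 0.21, 0.57 and 0.92 (mean 0.46, adjusted p = 0.108) were also above 0 on all 4 arrays.

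At the step before, from 12 to 14 weeks, the 16 falling probes had means between -0.34 and 0.31 in *mdx* and between -0.39 and 0.33 in control mice, with medians of 0.06 and 0.08. The change from 14 to 20 weeks was the largest of the 9 steps for 9 of them in *mdx* and for 8 in control mice. For 12 of the 16 the lowest age of the whole course was 20 weeks, in *mdx* and in control mice. These are descriptions, since the probes were chosen for their size at this step and the 12 to 14 week arrays share the 14-week animals. For Ckm, the steps ran as follows. In *mdx* mice the mean of its 12 to 14 week arrays was 0.90 and that of the 14 to 20 week arrays -0.92, and the value at 20 weeks was -0.02 relative to that at 12 weeks. In control mice the 12 to 14 week arrays were opposed, at -0.29 and 0.38, the means were 0.04 and -1.28, and 20 weeks was -1.24 relative to 12 weeks. Whether the strains differ here was not tested.

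**Figure D3:**
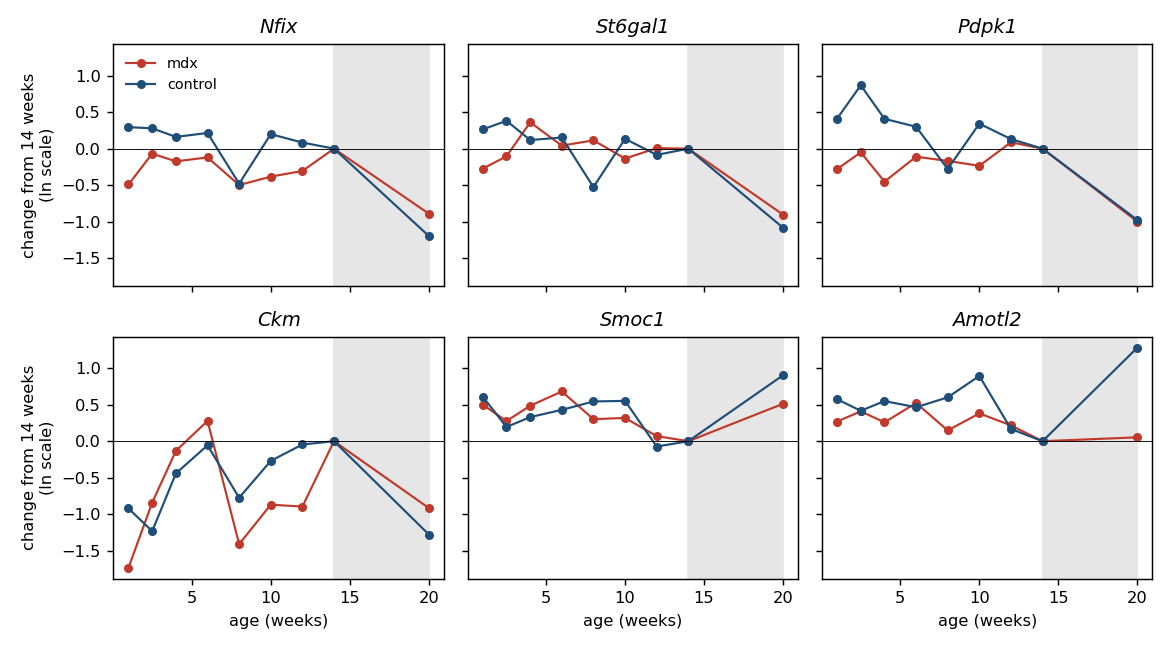
Fitted change relative to 14 weeks (ln scale) against age in weeks in *mdx* (red) and control mice (blue), for 6 probes, with the interval from 14 to 20 weeks in grey. Nfix, St6gal1 and Pdpk1 are lowest at 20 weeks in both strains, Ckm in *mdx* mice is lower at 1 week (-1.73) and 8 weeks (-1.41) than at 20 weeks (-0.92), Smoc1 is above 0 in both strains at 20 weeks, and Amotl2 is at 1.28 in control and 0.05 in *mdx* mice.

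Counted array by array, 27 probes (0.4%) were at or below -0.3 on all 4 arrays and 0 (0%) at or above 0.3. Of the 27, 12 passed the test of the mean and 15 did not. Those that did not include Ier3, an immediate early gene, with -0.98, -0.82, -1.17 and -0.93 (mean -0.98, adjusted p = 0.0793), and Txn2, the mitochondrial thioredoxin, with -0.97, -0.72, -1.02 and -0.56 (mean -0.82, adjusted p = 0.117). Oaz1, the antizyme that limits polyamine synthesis, had -0.45, -0.58, -0.34 and -0.68 (mean -0.51, adjusted p = 0.117). The others were Ankrd2, Casq1, Ckm, Eno3, Cyp2e1, Ethe1, Gpd2, Mtx1, Pcbp4, Rnf32, Rplp0 and Tm4sf1. Ethe1, a sulphur dioxygenase of mitochondria, lay just inside the limit, between -0.31 and -0.33 on every array. Rplp0 is measured by 2 probes, of which the second gave 0.02, -0.20, 0.37 and -0.26. For 20 of the 27 the control mean was lower than the *mdx* mean, but the control arrays spread more widely and nothing is read from that count. With arrays scaled to equal spread this order was not kept for Nfix (control change -0.74, mean -0.88). It was kept for Cdh13 (control change -0.81, mean -0.68). After scaling of the arrays to equal spread, 14 probes were at or below the limit on all 4.

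Within the control mice alone 8 probes fell (0.118%) and 3 rose (0.0444%), and at an unadjusted p under 0.05 466 (6.9%) were below and 312 (4.62%) above 0. Of these 11, 8 were also called in the mean over both strains, namely Amotl2, Cdh13, Dusp8, Icam2, Marchf7, Nfix, St6gal1 and Tcap. The remaining 3 were Atp11a, Trpc4ap and Cntn4. Atp11a, a flippase that moves phospholipids to the inner leaflet of the membrane, measured 0.43 and 0.90 in control against -0.02 and -0.12 in *mdx* mice (control change 0.67, standard error 0.14, adjusted p = 0.0481). Trpc4ap, an adaptor of a ubiquitin ligase, measured 0.92 and 0.40 in control against -0.01 and -0.15 in *mdx* mice (control change 0.66, standard error 0.12, adjusted p = 0.0209). Cntn4, an adhesion protein known from neurons, measured -0.74 and -0.80 in control against -0.10 and 0.22 in *mdx* mice (control change -0.77, standard error 0.16, adjusted p = 0.0373). In each of the 3 the strains did not overlap. Without the wide array of animals A none of the 11 passed (adjusted p from 0.0534 to 0.251), and without the array of animals B 10 did. The number of calls in control mice was 3 without the array of animals A and 839 (271 up, 568 down) without that of animals B, when the wide array stands alone.

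Within the *mdx* mice no probe passed in either direction (0%), with 186 (2.75%) below and 80 (1.18%) above 0 at an unadjusted p under 0.05. This count of 0 rests on both *mdx* arrays and was not kept without that of animals A. The lowest adjusted p was 0.132, for Klf13, with a change of -0.92 (standard error 0.17). Nfix, St6gal1, Marchf7 and Pdpk1 followed among the probes below 0, with changes of -0.89, -0.91, -0.70 and -1.0 and adjusted p from 0.689 to 0.759. On the higher side Lin7b, a scaffold protein of cell polarity, measured 0.11 and 1.17 (change 0.64, adjusted p = 0.689). Stub1, a ubiquitin ligase that works with chaperones, measured -0.27 and -1.25, and Ccs, the copper chaperone of superoxide dismutase, -0.14 and -0.83. These 3 rest on the *mdx* array of animals B, as their values on the narrow array were small.

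The change did not differ between *mdx* and control mice beyond the threshold for any probe (0% in either direction). At an unadjusted p under 0.05, 166 probes (2.46%) had a higher and 156 (2.31%) a lower change in *mdx* than in control mice, and the lowest adjusted p was 0.622. This count of 0 rests on all 4 arrays, as 181 probes were called without the control array of animals B and 6 without the *mdx* array of animals A. In simulated data a 2-fold difference between strains was recovered for 15 of 67 probes, so real differences can be missed here. By the moderated t, the leading 3 were Heph, Amotl2 and Trpc4ap. Heph, the ferroxidase hephaestin, measured 0.13 and -0.78 in *mdx* and 0.67 and 1.01 in control mice (difference -1.16, 95% interval -1.72 to -0.61, adjusted p = 0.622). For Amotl2 the difference was -1.23 (95% interval -1.82 to -0.64) and for Trpc4ap -0.74 (95% interval -1.10 to -0.38), both at the same adjusted p. Cdh1, E-cadherin, also had a lower change in *mdx* mice, with -0.29 and 0.03 in *mdx* and 1.25 and 0.47 in control mice (difference -0.99, adjusted p = 0.960). On the other side stood Myef2, a repressor of transcription, with 0.04 and 0.44 against -0.94 and -0.27 (difference 0.85, adjusted p = 0.960), while a second Myef2 probe gave 0.16 and 0.10 against -0.17 and 0.16. Etv3, an ETS-family repressor, measured 0.25 and 0.36 against -0.44 and -0.35 (difference 0.70, adjusted p = 0.960). Of the genes that fell in both strains, Nfix differed by 0.31 (95% interval -0.30 to 0.91) and Pdpk1 by -0.02 (95% interval -0.77 to 0.73), which are wide intervals around 0, and Cdh13 differed by 0.89 (95% interval 0.24 to 1.54, adjusted p = 0.960).

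Counted array by array for 1 strain only, meaning both arrays at or past 0.5 and both arrays of the other strain within 0.25 of 0, control mice had 16 probes up and 16 down (0.237% each). The *mdx* mice had 2 down (0.0296%) and 0 up (0%). After scaling of the arrays to equal spread, the counts turned to 2 up and 0 down in control and 1 up and 5 down in *mdx* mice, so the excess in control mice was not kept. Of the 34 probes 0 passed in the difference between strains. At an unadjusted p under 0.05 there were 21, beside 2.46% and 2.31% of all probes, but the limits had chosen them for such a difference and nothing is read from that count. Amotl2 and Cntn4 are the 2 that passed within control mice. The 2 of *mdx* mice were Cfl1, which severs actin filaments, with -0.71 and -0.57, and Mga, a partner of MAX, with -0.56 and -0.65.

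The 16 higher in control mice are described by examples picked with their values known. B2m, the light chain of class I histocompatibility antigens, measured 0.20 and 0.19 in *mdx* and 0.78 and 0.90 in control mice. Ccl5, a chemokine of T cells, measured 0.07 and 0.17 against 0.91 and 0.56, and Cd44, the hyaluronan receptor, -0.01 and 0.08 against 0.69 and 0.65, which a second Cd44 probe did not share (-0.01 and 0.31 against -0.32 and 0.12). Ucp1, the uncoupling protein of brown fat, measured -0.01 and 0.00 against 1.54 and 1.02. Aoc3, an amine oxidase abundant in adipocytes and vessels, measured -0.10 and -0.13 against 0.95 and 0.92, and Rbp4, the retinol carrier made in liver and fat, -0.04 and -0.07 against 0.60 and 0.64. The remaining 10 were Alas2, Amotl2, Cdkn2c, Grb7, Ly75, Map3k2, Muc13, S100a5, Tenm4 and Top2b, of which Tenm4 has a second probe at 0.46 and -0.15 in control mice.

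The 16 lower in control mice held Cpt1b, the muscle enzyme that brings fatty acids into mitochondria, with 0.10 and -0.10 in *mdx* and -0.90 and -0.71 in control mice. They also held Furin, the proprotein convertase, with 0.09 and 0.24 against -0.55 and -0.53, Nos2, the inducible nitric oxide synthase, with 0.20 and -0.11 against -0.51 and -0.73, and Hdgf, a growth factor, with -0.14 and 0.03 against -0.73 and -0.63. The other 12 were Cdh10, Cish, Cntn4, Col13a1, Col19a1, Erdr1, Fibp, Homer2, Il13ra2, Pdcd6, Pkig and Xist. For Xist the difference of 0.60 had a wide 95% interval, from -0.79 to 1.99. All of these differences failed the adjustment over all probes.

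The adipocyte list stood highest among the lists on both control arrays. Its 20 probes had medians of 0.01 and -0.03 on the *mdx* and 0.28 and 0.34 on the control arrays, and 16 of the 20 control means were above 0, against 3127 of 6754 for all probes. At an unadjusted p under 0.05, 5 were above and 1 below 0 in control mice, against 4.62% and 6.9% of all probes, and 0 were called. Cidea, a lipid droplet protein of brown fat, measured 0.38 and 0.27 in *mdx* and 1.54 and 1.39 in control mice (control change 1.46, adjusted p = 0.391). Adipoq, adiponectin, measured 0.15 and -0.53 against 1.28 and 0.66 (control change 0.97, adjusted p = 0.254), Lipe, the hormone-sensitive lipase, -0.12 and 0.39 against 0.51 and 0.59, and Dgat1, which makes triglyceride, -0.19 and -0.07 against 0.62 and 0.28. Fabp4, the fatty acid carrier of adipocytes, parted by replicate instead, with -0.43 and 0.42 in *mdx* and -0.99 and 1.02 in control mice. At the step before, Cidea was above 0 on both control arrays, at 1.04 and 0.67, and the *mdx* arrays were opposed, at -1.52 and 0.55. The part of fat tissue in the samples in any of these differences was not tested.

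**Figure D4:**
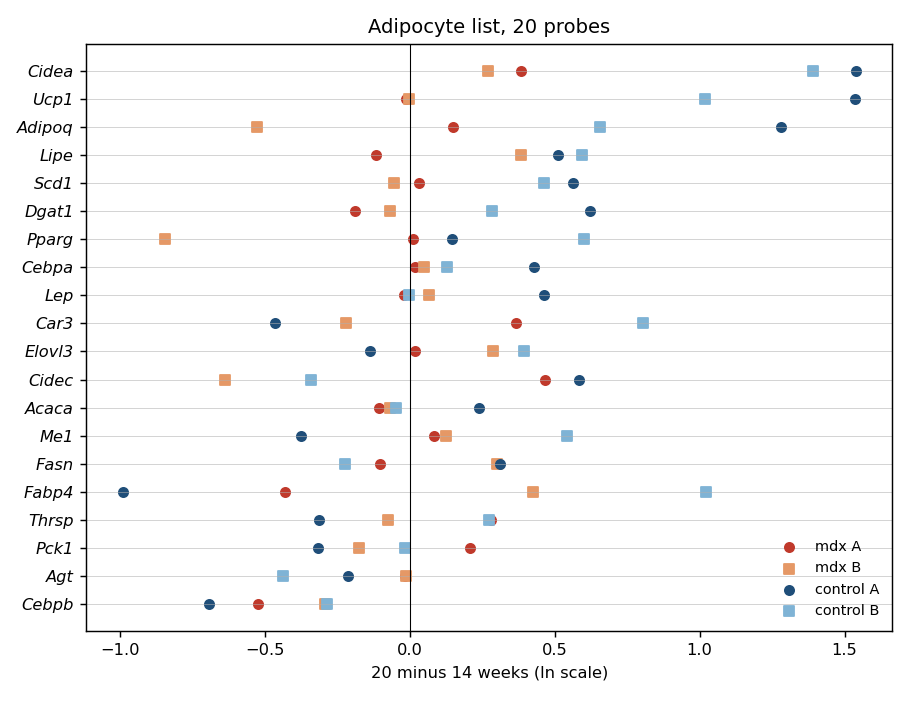
Value of each array (20 minus 14 weeks, ln scale) for the 20 probes of the adipocyte list, ordered by the mean of the control arrays. For Cidea, Ucp1, Adipoq and Scd1 both control arrays (blue) lie above both *mdx* arrays (red and orange), while Fabp4 has its arrays of animals A below 0 and those of animals B above.

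Genes of fatty acid use in the fibre held no call. In the list of lipid uptake and fatty acid oxidation 7 of 21 probes were below and 1 above 0 in control mice at an unadjusted p under 0.05, against 6.9% and 4.62% of all probes. Fabp3, the fatty acid carrier of muscle, measured -0.18 and -0.37 in *mdx* and -1.28 and -0.77 in control mice (control change -1.03, adjusted p = 0.0534). Eci1, an isomerase of fatty acid oxidation, measured -0.42, -0.20, -1.14 and -0.26. Angptl4, an inhibitor of lipoprotein lipase, was the 1 above 0, with 0.55 and 0.04 against 1.10 and 0.62. The list's medians were 0.01 and -0.12 on the *mdx* and -0.56 and 0.14 on the control arrays, so its whole did not keep a direction.

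Of the glucocorticoid and fasting response list 1 of 19 probes was called, Klf9, and 5 were below and 1 above 0 at an unadjusted p under 0.05 in the mean, against 6.46% and 3.49% of all probes. The list as a whole was split, with 8 probes above and 11 below 0, and the 1 above was Angptl4 (mean 0.58, adjusted p = 0.294). Cebpb, a factor of the acute and fasting response, measured -0.52, -0.29, -0.69 and -0.28 (mean -0.45, adjusted p = 0.20), and Per1, of the circadian clock, -0.69, -0.42, -1.66 and 0.03 (mean -0.69, adjusted p = 0.264). Of the 24 immediate early probes 0 were called and 3 were below 0 at an unadjusted p under 0.05, Ier3, Gadd45g and Klf4. The proteasome and ubiquitin list had 0 of 24 called and 4 below 0 at that p, against the same shares of all probes, among them Psmb1 with -0.50, -0.47, -0.08 and -0.48 and Psmb5 with -0.34, -0.29, -0.16 and -0.48.

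Lists of inflammation, matrix and regeneration held no call at this step. Of all probes only 0.237% were called down and 0.0296% up in the mean. A count of 0 in lists of this size is near that share, and nothing is read from it. For macrophage and myeloid genes 0 of 32 probes were called, with medians of -0.12 and 0.03 on the *mdx* and 0.19 and -0.01 on the control arrays. Of the 32 control means 26 were above 0, against 3127 of 6754 for all probes. By array, 25 were above 0 on the wide control array and 15 on that of animals B. C1qa, a complement protein of macrophages, measured -0.53 and -0.40 in *mdx* and 0.20 and -0.04 in control mice. Its partner C1qb measured 0.06 and 0.46 in *mdx* and -1.11 and 0.31 in control mice, and C1qc -0.30 and 0.00 against 0.36 and 0.31, so the 3 chains of the complex did not keep 1 direction. For extracellular matrix and fibroblast genes 0 of 57 were called. Fmod, fibromodulin, measured -0.36, -0.11, -1.66 and -0.69 (mean -0.71, adjusted p = 0.285). For regenerating and embryonic muscle 0 of 28, and for satellite cell and Notch genes 0 of 25 were called, with medians between -0.14 and 0.09. Chemokines and cytokines had 0 of 32, antigen presentation 0 of 17 and lymphocytes 0 of 17 called, where Gzma, a granzyme, measured 0.52, 0.06, 0.90 and 0.23 (mean 0.43, adjusted p = 0.20). Heat shock genes had 0 of 26, cell cycle 0 of 35, circadian clock 0 of 19, ribosomal proteins and translation factors 0 of 44, Schwann cell and nerve 0 of 17, erythroid 0 of 10 and skin keratinocyte genes 0 of 14 called.

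**Figure D5:**
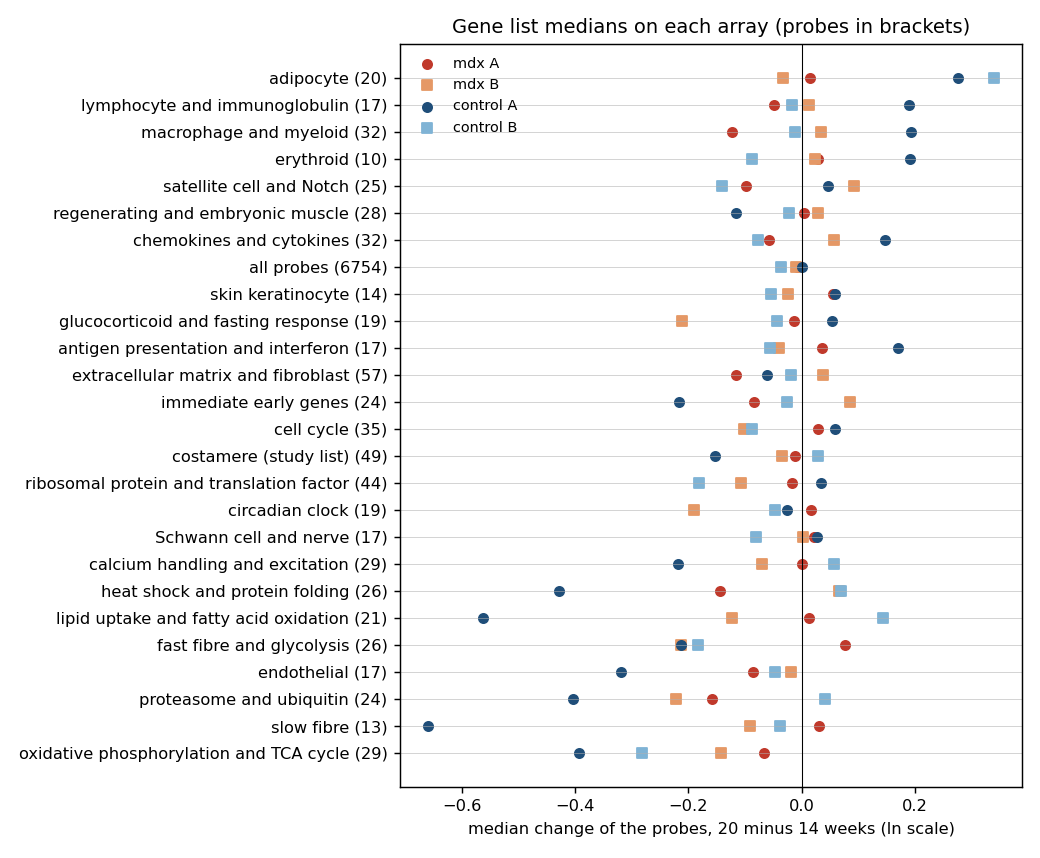
Median change (20 minus 14 weeks, ln scale) over the probes of each list on the 4 arrays, with the number of probes in brackets and the lists ordered by the median of the mean over both strains. Adipocyte genes are highest on both control arrays (0.28 and 0.34), oxidative phosphorylation is below 0 on all 4 arrays, and the wide control array of animals A stands apart in several lists.

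Dmd itself, the gene mutated in *mdx*, was measured by 2 probes. The paper describes an oligonucleotide in a first exon found only in the retinal isoform, and another near the end of the transcript. The 2 probes therefore need not measure the same transcript, and which is which was not checked. They gave 0.08 and -0.23 in *mdx* and 0.28 and -0.26 in control mice, and -0.07, 0.30, 0.82 and -0.27, with adjusted p of 0.959 and 0.610 in the mean. Both probes had opposite signs on the control arrays. The paper could not detect the retinal isoform in control muscle, so the control values of its probe may lie near background. Of the 49 measured probes of the study's costamere list, Tcap was the 1 called. The study drew that list from a published overview of the costamere. The medians were -0.01 and -0.04 on the *mdx* and -0.15 and 0.03 on the control arrays. Utrn, the utrophin that can stand in for dystrophin, measured -0.15, 0.66, 0.08 and -0.17, and Itga7, an integrin of the costamere, -0.22, -0.12, -0.72 and -0.12 (mean -0.30, adjusted p = 0.458).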

How the data were processed

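Hindlimb muscle RNA was amplified, labelled with Cy3 or Cy5 and hybridised to long oligonucleotides spotted in duplicate, a library of 7776 positions. The authors extracted median spot intensities in GenePix Pro 3, less the background around each spot, and normalised all arrays together by variance stabilisation (VSN). They deposited the ratio of channel 1 over channel 2 for each spot on a natural log scale, so intensities and depth per spot are not used here, and the 2 arrays per strain limit the precision. Of the 7776 positions 938 have no name, and 80 Gapdh positions and 5 accessions at 2 positions were averaged, which gave 6754 probes, of which 7 match several symbols.

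Ages within each strain were fitted over all 36 arrays with limma 3.58.1 in R 4.3.3, with 1 dye term per strain and 18 residual degrees of freedom. The value for a strain is the mean of its 2 direct arrays, with a median standard error of 0.18. That standard error uses the spread of all 36 arrays, while the replicate arrays of this step were the least alike. With array weights the control arrays of this step got 0.284 each. The median standard error in control mice was then 0.308, and 0 probes were called. Named probes are, for each contrast and direction, the 8 of largest change among those that passed with the same sign on every array, filled up by moderated t where fewer passed, and up to 4 members of each of 24 gene lists and the study's costamere list, and Dmd. For the difference between strains, both arrays of a strain lay beyond both of the other. Some other members are named outside this rule, with their values known. Members and lists were chosen with earlier results of these data known. The fit was tested on simulated data. A difference between strains was recovered for 1 of 67 probes at 1.5-fold, 15 of 67 at 2-fold and 47 of 66 at 4-fold. A change in both strains was recovered in the mean for 31 of 67, 63 of 67 and 66 of 66. The simulated noise of a probe was independent and of equal spread on all 36 arrays. The arrays of this step were not so, and recovery there may be lower. Alternatives are given in the closing section. Promoters came from RefSeq (GRCm38.p6).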

Additional observations from a re-analysis of the deposited data

How the results depend on the processing

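The counts of calls moved with the processing. All called probes kept their sign under every alternative that tested them. Several alternatives, such as array weights, a replicate block or no dye term, leave the estimate as it was. There the sign could not change, and nothing is read from its being kept. In control mice 11 probes were called, against 0 with arrays scaled to equal spread, 0 without a dye term, 2 with a shared dye term, 0 from the 4 arrays alone, 26 and 39 from the first or second spot, 0 with array weights, 4 by Bonferroni and 17 without unequal spots. In the mean over both strains 18 were called, against 9 with scaled arrays, 1 without a dye term, 7 with a shared dye term, 0 from the 4 arrays alone, 0 with array weights, 8 with each probe's own variance and 5 by Bonferroni. With arrays that share an animal taken as correlated, 13 of the 18 and 10 of the 11 remained. In *mdx* mice scaling gave 1 call in place of 0. Leaving out 1 array gave 0 to 71 calls in *mdx*, 3 to 839 in control mice, 4 to 390 in the mean and 0 to 181 in the difference. Of the 18 probes, 11 remained without *mdx* A, 4 without *mdx* B, 3 without control A and 18 without control B, and Nfix, St6gal1 and Marchf7 passed each time. The 27 probes low on all 4 arrays became 14 with scaled arrays, 9 at a limit of 0.5, and 60 (56 low and 4 high) at a limit of 0.2. The 34 probes of 1 strain became 8 with scaled arrays, 134 without a dye term, 57 from the second spot, and 59 or 7 at limits of 0.4 or 0.7. The labels do not say what the letters A and B share. Arrays of 1 letter correlated between strains at r = 0.234 (A) and 0.207 (B), arrays of different letters at -0.0694 and -0.0421, and the differences between A and B at 0.194. With the letter as a replicate block, 7 probes were called in control mice and 8 in the mean. The cause of these changes was not tested.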
